A study of Rattus norvegicus with 32 samples.

Results

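Adrenalectomized and sham-operated rats were compared after ozone in the hypothalamus, the brain region that drives the hormonal stress axis. The members were chosen by their labels alone: 4 hypothalamus libraries of adrenalectomized rats in ozone (ADREX ozone, numbered 81 to 84) and 4 of sham-operated rats in ozone (sham ozone, numbered 17 to 20), 8 of the 32 libraries of the series. The animals were Wistar Kyoto rats, an inbred strain, aged 13 weeks. ADREX animals had lost both adrenal glands, and sham animals had an operation that left the glands in place. All 8 libraries come from animals that breathed ozone at 0.8 ppm for 4 hours, with the tissue frozen immediately afterwards. The other 24 libraries are the same operations in filtered air and the brainstem of all groups, and they are used here only for comparison. The sources used here name no hormone replacement or drug. No source used here states that each library is a separate animal, so the p-values measure the spread between libraries.

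The adrenal cortex makes corticosterone, the main glucocorticoid of the rat, and the mineralocorticoid aldosterone, and the adrenal medulla releases adrenaline. Corticosterone enters the brain and binds the glucocorticoid receptor (Nr3c1) and the mineralocorticoid receptor (Nr3c2), which act as transcription factors on genes such as Fkbp5, Sgk1, Per1 and Tsc22d3. In the hypothalamus it also feeds back on corticotropin-releasing hormone (Crh) and vasopressin (Avp), the peptides that call for its release.

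The 8 libraries held 6.44 to 8.57 M reads, with 18036 to 18447 genes at 1 read or more. Each group held 1 library that stood apart by the chi-square per gene of the reads between replicates. It was 20.99 to 31.58 for pairs with sham ozone 18 and 2.78 to 6.97 among 17, 19 and 20. For pairs with ADREX ozone 84 it was 18.07 to 31.33, against 5.61 to 6.19 among 81, 82 and 83. Transcription factors that mark the hypothalamus, such as Sim1, Otp and Six3, together made up 80.3 to 97.5 reads of each M reads (RPM) in the 8 libraries, against 13.3 to 20.2 in all brainstem libraries. Of these markers Rax had 0 reads in 4 of the 8 libraries. Markers of thalamus, striatum and cortex summed to 1074 to 1433 RPM in sham ozone and 1142 to 1737 in ADREX ozone. In all brainstem libraries they summed to between 190 and 316. ADREX ozone 84 was the highest, at 1737 RPM. Liver transcripts (albumin and the like) reached 4121 RPM in sham ozone 18, against 959.7 to 1233 in the other sham ozone libraries and 865 to 1626 in ADREX ozone. Red blood cell transcripts summed to between 74.7 and 519 RPM in sham ozone and between 5.61 and 134.9 in ADREX ozone, and choroid plexus transcripts reached 541 in ADREX ozone 82 against at most 109.9 in the others. Counts of calls without the libraries above 2000 RPM of liver transcripts are given below. The part of the red blood cell and choroid plexus transcripts and of RNA from neighbouring brain regions in the results was not tested.

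After ozone, 21 of 40 glucocorticoid-responsive genes and 6 of 24 lipid and peroxisome genes were lower in adrenalectomized rats and 0 of either list were higher. Of 16 endothelial markers 6 were higher and 1 was lower, and of 16 inflammatory genes 2 were higher. The lists were chosen with earlier results of these data known, so these counts are descriptions. Changes are log2 differences ± SE of ADREX ozone minus sham ozone on the log2(value + 1) scale, where value is the deposited normalized count, and a gene was called at a Benjamini-Hochberg adjusted p under 0.05 from limma. Limma called 325 of 14483 genes tested (2.24%), of which 151 were higher (1.04%) and 174 lower (1.2%) in ADREX ozone. These shares over all genes are the background for the list counts above and below. The values of 309 of the 325 did not overlap between the groups, and neither did those of 961 of all genes tested (6.64%). The median change was 0.68 among the higher calls and -0.67 among the lower calls, and the larger changes were mostly falls. Among called genes, 100 rose and 111 fell by 1.5-fold or more, 28 rose and 54 fell by 2-fold or more, and 1 rose and 13 fell by 4-fold or more. The gene that rose by over 4-fold was Pcdh12 (2.19 ± 0.43, limma adjusted p = 0.00861), an endothelial protocadherin, named here after its value was seen. Leaving out sham ozone 18 raised the count to 584, and leaving out sham ozone 19 or 20 lowered it to 198 or 204. It was 161 in a fit of the compared groups alone and 1011 with sample weights, and 302 of the 325 genes were also called without sham ozone 18.

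**Figure D1:**
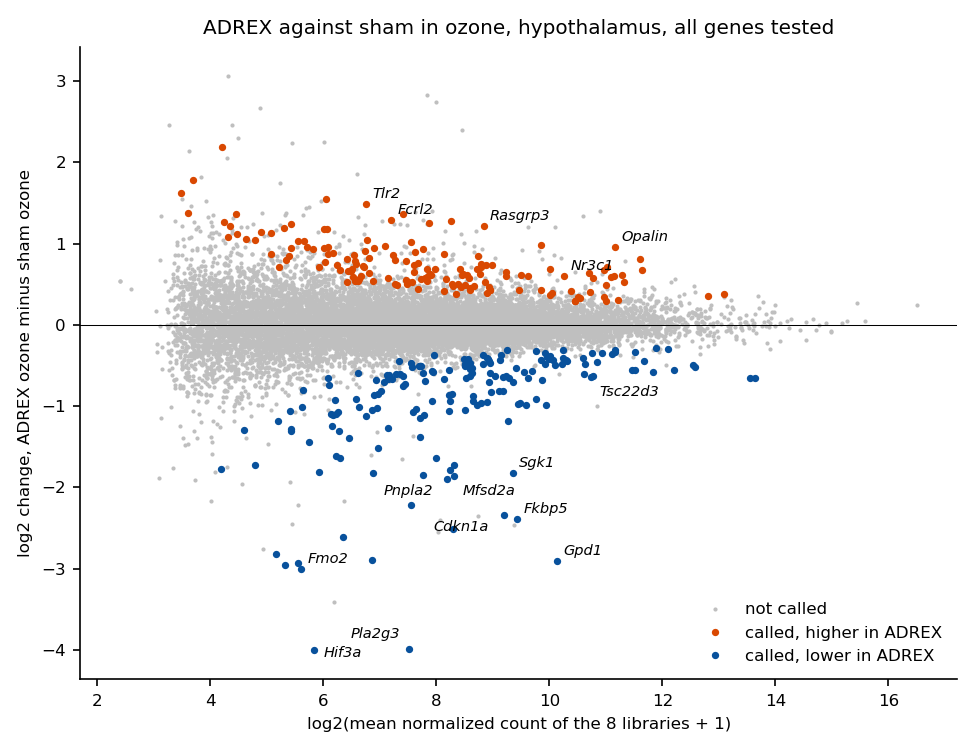
Each point is 1 of 14483 genes, with its level (log2 of the mean normalized count of the 8 libraries plus 1) on the x axis and its log2 change, ADREX ozone minus sham ozone, on the y axis. Coloured points are the 325 called genes, and falls reach further below 0 than rises reach above it.

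Many of the steepest falls were those of genes listed here as glucocorticoid-responsive, a list drawn with earlier results of these data known. Fkbp5, a co-chaperone that lowers the hormone affinity of the glucocorticoid receptor, stood at 1363, 947, 1209 and 1126 normalized counts in sham ozone 17, 18, 19 and 20, and at 223, 211, 231 and 211 in ADREX ozone 81, 82, 83 and 84. Its highest ADREX library thus lay below its lowest sham library by a wide gap, and the mean fell from 1162 ± 174 to 219 ± 9.79 (SD, n = 4 each), 5.24-fold (-2.39 ± 0.14, limma adjusted p = 6.13e-08). Gpd1, the cytosolic glycerol-3-phosphate dehydrogenase, was at 2083, 1606, 2209 and 2025 in the sham libraries and at 299, 214, 230.0 and 321 in the ADREX libraries, in the same order. Gpd1 fell 7.48-fold (-2.90 ± 0.20, limma adjusted p = 1.81e-07). Cdkn1a, the cell cycle inhibitor p21, read 950.0, 942, 1110 and 904 in sham ozone and 166, 168, 190.0 and 256 in ADREX ozone, a 5.05-fold fall (-2.34 ± 0.16, limma adjusted p = 1.45e-07). The sham and ADREX values of these genes did not overlap, as the rule for naming the largest falls required.

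The steepest fall of the hormone-responsive genes was that of Hif3a, a hypoxia-inducible factor subunit, from 125, 48.1, 152 and 97.5 normalized counts in sham ozone to 2.82, 8.09, 2.5 and 10.6 in ADREX ozone (-4.01 ± 0.58, limma adjusted p = 0.000734). Zbtb16, a zinc finger transcription factor, fell from 229, 98.2, 278 and 215 to 19.7, 23.4, 27.5 and 30.5 (-2.89 ± 0.31, limma adjusted p = 5.43e-05). Sham ozone 18 was the lowest sham library for both genes. It lay above every ADREX library, as the rule for naming the largest falls required. Sgk1 is a kinase that both corticosteroid receptors induce and that raises sodium transport in epithelia. It stood at 1244, 476, 1494 and 932 in sham ozone and at 229, 239.9, 262 and 361 in ADREX ozone (-1.82 ± 0.34, limma adjusted p = 0.00698). Mt2A, a metal-binding metallothionein, fell from 308 ± 79.6 to 64.0 ± 4.69 (-2.22 ± 0.44, limma adjusted p = 0.00939). Tsc22d3, the anti-inflammatory leucine zipper protein GILZ, changed less, from 2082 ± 251.4 to 1331 ± 163 (-0.65 ± 0.10, limma adjusted p = 0.00209).

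Of 40 genes in the list of glucocorticoid-responsive genes, all tested, 21 fell, 0 rose and 19 did not pass. The median change was -0.80 (-0.96 or -0.65 when sham ozone 18 or 19 was left out) and 34 of the 40 were negative, against a median of 0.01 over all genes tested. The list was drawn from general knowledge of glucocorticoid targets with earlier results of these data known, so its count is a description. The other members that fell were Plin4, Klf9, Klf15, Pdk4, Ddit4, Errfi1, Mertk, Fam107a, Bcl6, Glul, Arrdc2, Sesn1 and Sult1a1. Among them Klf9, a Krüppel-like transcription factor, went from 952 ± 179 to 480.0 ± 16.6 (-0.97 ± 0.12), and Glul, the glutamine synthetase of astrocytes, from 15606 ± 1489 to 9973 ± 1529 (-0.65 ± 0.10), with limma adjusted p = 0.000129 and 0.00167. Well-known targets that did not pass included Dusp1 (-0.29), Nfkbia (-0.84), Mt1 (-1.65), Cebpd (-0.85) and Angptl4 (-0.66), with limma adjusted p from 0.105 to 0.646. Per1, a clock gene with a glucocorticoid response, read 430.5, 253, 457 and 360.5 in sham ozone and 234, 206, 204 and 228 in ADREX ozone. These values did not overlap, and the change of -0.75 ± 0.21 missed the threshold (limma adjusted p = 0.0823). Without sham ozone 18, the sham library nearest to the ADREX ones, limma gave Per1 adjusted p = 0.0129, and the range over all alternatives was 0.00794 to 0.283. The list held 17 called genes when sham ozone 17 or 19 was left out and 23 without sham ozone 18. In bulk tissue, fewer cells of a type and less RNA per cell cannot be told apart.

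**Figure D2:**
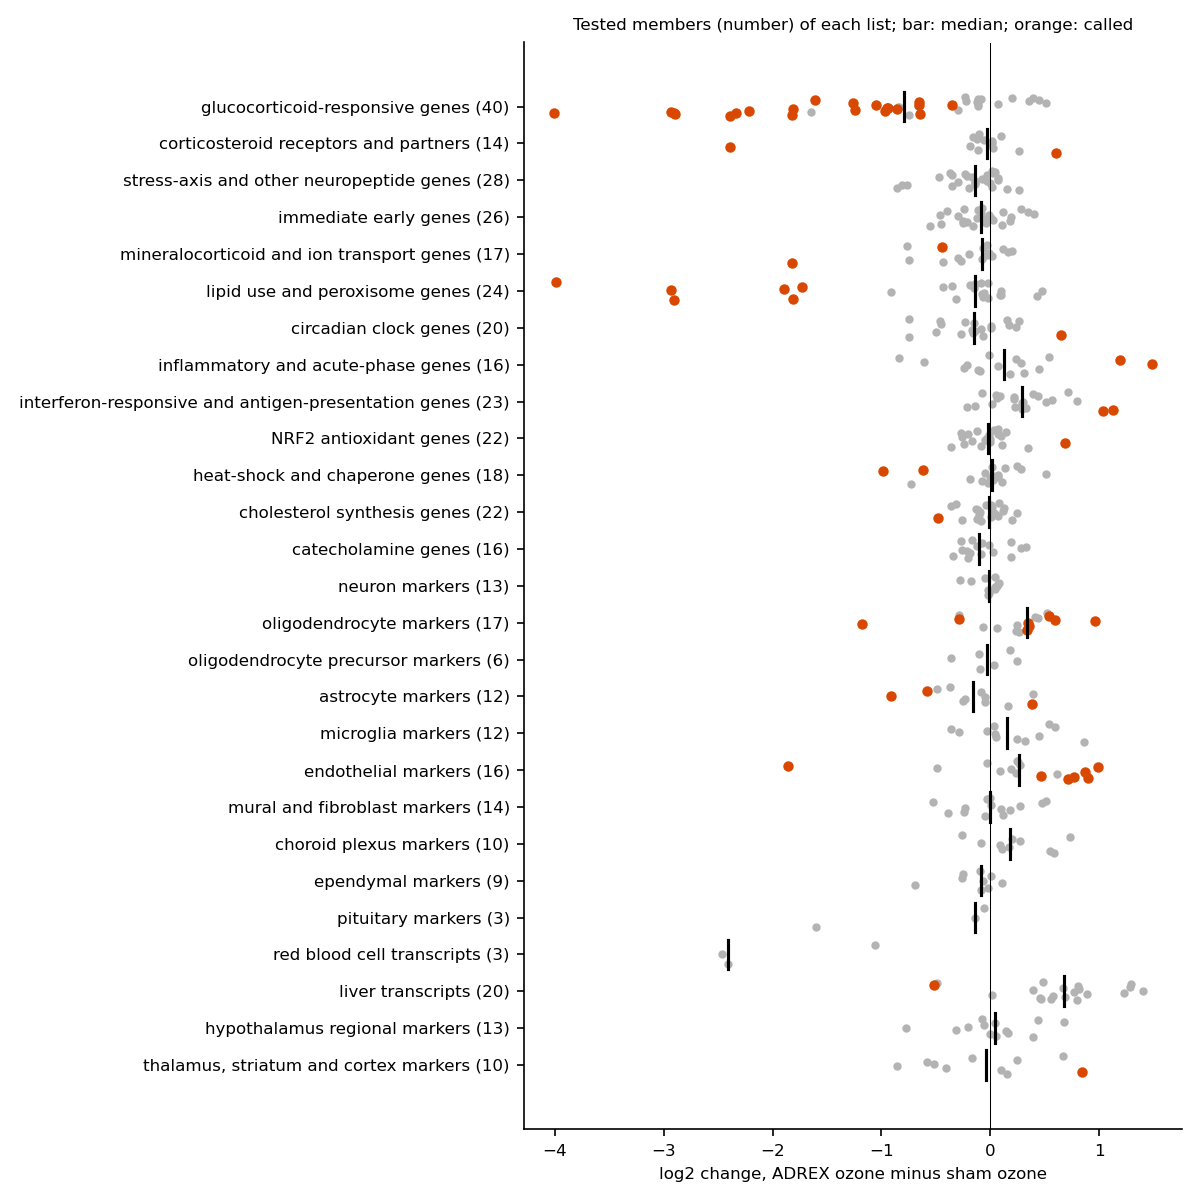
Each point is a tested gene of a list, with its log2 change, ADREX ozone minus sham ozone, on the x axis; the number of tested genes stands beside each list name, the bar is the list median and orange points were called. The glucocorticoid-responsive genes have a median of -0.80, while most other medians lie near 0.

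Since the lower calls held many glucocorticoid-responsive genes, promoters were read for letters of the glucocorticoid response element, an inverted repeat to which the receptor binds as a dimer. The windows are those of RefSeq on GRCr8, from 250 bases before to 50 after the gene start, and 10747 of the 14483 tested genes matched by symbol. The full repeat, AGAACA and its reverse complement TGTTCT with any 3 bases between them, was in 0 windows of tested genes on either strand. The looser repeat, GNACA and TGTNC with any 3 bases between them, was in 1 of 131 lower calls (0.763%), Fam107a, and in 30 of all tested genes (0.279%), and it was in 147 of 33469 windows of the whole table (0.439%). The hexamer AGAACA, which lies inside the full repeat and can overlap the looser one, was in 17 of 131 lower calls (13%), 8 of 113 higher calls (7.08%) and 1409 of all tested genes (13.1%). Fkbp5, Fmo2 and Fam107a are shown as a strong fall with no match, a strong fall with a hexamer and the 1 lower call with the looser repeat. Fam107a, an actin-associated protein that responds to stress, went from 2189 ± 158 to 1718 ± 103 normalized counts (-0.35 ± 0.07, limma adjusted p = 0.0134). The 250 bases before each start are given 5′ to 3′ on the strand of the gene, with motif letters in capitals, at chr20:6543556-6543805 (minus strand), chr13:77777535-77777784 (minus strand) and chr15:19046331-19046580 (plus strand) of GRCr8.
Fkbp5: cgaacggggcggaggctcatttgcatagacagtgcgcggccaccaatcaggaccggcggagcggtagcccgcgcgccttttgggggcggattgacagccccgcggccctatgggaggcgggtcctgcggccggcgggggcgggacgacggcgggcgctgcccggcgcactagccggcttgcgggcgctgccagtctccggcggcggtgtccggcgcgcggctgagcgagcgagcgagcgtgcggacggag
Fmo2: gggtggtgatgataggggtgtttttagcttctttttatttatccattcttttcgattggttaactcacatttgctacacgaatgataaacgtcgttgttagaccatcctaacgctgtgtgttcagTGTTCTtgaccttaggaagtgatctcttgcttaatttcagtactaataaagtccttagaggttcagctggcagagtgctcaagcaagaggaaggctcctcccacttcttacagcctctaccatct
Fam107a: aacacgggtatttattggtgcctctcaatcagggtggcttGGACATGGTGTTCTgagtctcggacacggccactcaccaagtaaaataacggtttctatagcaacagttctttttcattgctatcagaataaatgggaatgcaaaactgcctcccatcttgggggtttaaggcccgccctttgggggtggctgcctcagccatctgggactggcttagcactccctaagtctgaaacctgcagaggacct
The capitals in Fmo2 are the hexamer read on the other strand, 125 bases before the start, and those in Fam107a are the looser repeat, 210 bases before the start, together with the hexamer on the other strand, which overlaps it and runs 1 base past it. A match is a description of letters, and no match says only that they are not in this window.

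Several genes of fat storage, fat release and peroxisomes fell. Pla2g3, a secreted phospholipase A2, read 326, 292, 399 and 353 normalized counts in sham ozone and 39.4, 14.4, 17.5 and 17.6 in ADREX ozone, a 15.9-fold fall (-3.99 ± 0.29, limma adjusted p = 3.83e-07). Pnpla2, the lipase that begins the breakdown of stored triglyceride, read 437, 452, 466 and 465 and then 147, 136, 118 and 93.8 (-1.89 ± 0.12, limma adjusted p = 1.08e-07). Pex11a, a peroxisome division protein, read 506, 444, 504 and 495 and then 163, 139, 136 and 148 (-1.73 ± 0.11, limma adjusted p = 6.13e-08). In each of these genes every ADREX library lay below every sham library, which was a condition for naming Pla2g3 and Pnpla2 among the largest falls. Plin4, a lipid droplet coat protein, fell from 80.7 ± 10.9 to 10.9 ± 7.17 (-2.93 ± 0.33), and Pdk4, the kinase that shuts down pyruvate oxidation, from 95.1 ± 46.5 to 23.96 ± 4.29 (-1.81 ± 0.31), with limma adjusted p = 6.89e-05 and 0.00326. With Gpd1 these were the 6 called members of 24 tested, all lower, and 18 did not pass. The list median was -0.14, and it was -0.27 without ADREX ozone 84. Enzymes of fatty acid oxidation did not pass, as in Cpt1a (-0.02), Acadm (0.09) and Hadha (-0.08), with limma adjusted p from 0.787 to 0.978.

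Further steep falls concerned genes outside these lists. Fmo2, a flavin-containing monooxygenase, read 97.5, 72.6, 88.2 and 85.3 in sham ozone and 15.03, 7.19, 8.75 and 9.38 in ADREX ozone (-3.01 ± 0.41, limma adjusted p = 0.000417). Slc19a3, a thiamine transporter, fell from 69.5 ± 13.5 to 8.53 ± 3.99 (-2.96 ± 0.34, limma adjusted p = 9.05e-05). Ctgf, a matricellular growth factor, fell from 140.4 ± 39.3 to 21.7 ± 3.54 (-2.61 ± 0.28, limma adjusted p = 5.43e-05). Gpatch4, a protein with a G-patch domain, had one of the smallest p-values, from 534 ± 81.4 to 92.4 ± 6.09 (-2.51 ± 0.15, limma adjusted p = 6.13e-08). None of the 4 genes overlapped between the groups, which was a condition for naming them. Mfsd2a, the transporter that carries lysophosphatidylcholine with omega-3 fatty acids across the blood-brain barrier, read 456, 386, 648 and 514 against 135, 127, 149 and 130.1 (-1.86 ± 0.20, limma adjusted p = 5.56e-05).

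The glucocorticoid receptor itself was higher in ADREX ozone. Nr3c1 stood at 842, 1224, 881 and 946 normalized counts in the sham libraries and at 1377, 1316, 1461 and 1731 in the ADREX libraries, a 1.52-fold rise (0.60 ± 0.13, limma adjusted p = 0.0229, 0.000752 to 0.0916 over the alternatives). The groups did not overlap, with sham ozone 18 the nearest of the sham libraries. The call was lost without sham ozone 17 (0.0900), 19 (0.0916) or 20 (0.0715) and without ADREX ozone 83 (0.0625) or 84 (0.0680). The mineralocorticoid receptor Nr3c2 did not pass, with 94.6, 120, 90.0 and 98.5 in sham ozone and 124, 91.7, 115 and 159 in ADREX ozone, which overlap (0.26 ± 0.20, limma adjusted p = 0.658). Of 14 tested receptors, chaperones and coregulators of corticosteroid action, Nr3c1 rose and Fkbp5 fell. The 12 others, among them the chaperones Hsp90ab1 and Fkbp4 and the coactivator Ncoa1, lay between -0.18 and 0.26. Of 17 tested mineralocorticoid and ion transport genes, Sgk1 and the angiotensin precursor Agt fell and 0 rose, with a median of -0.07 (-0.13 without ADREX ozone 82 and -0.14 without ADREX ozone 84). Agt went from 3763 ± 185 to 2772 ± 184 (-0.44 ± 0.07, limma adjusted p = 0.00209).

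None of the 28 tested stress-axis and other neuropeptide genes passed the test. Crh read 24.6, 15.7, 21.1 and 11.2 normalized counts in sham ozone and 16.9, 19.8, 17.5 and 34.0 in ADREX ozone (0.27 ± 0.28, 95% interval -0.33 to 0.86, limma adjusted p = 0.770). Avp read 363, 189, 483 and 422 in sham ozone and 524, 332, 291 and 426 in ADREX ozone (0.15 ± 0.31, interval -0.49 to 0.80, adjusted p = 0.898). Both genes overlapped between the groups, and the intervals span changes of either sign. Oxytocin (Oxt) was at 330.5 ± 158 and 261 ± 62.2 (-0.20 ± 0.37), and thyrotropin-releasing hormone (Trh) at 1435 and 1488 (-0.03), with limma adjusted p = 0.890 and 0.971. Pomc, the precursor of ACTH and melanocortins, was at 29.3, 49.1, 61.6 and 72.1 in sham ozone and 29.1, 27.9, 20 and 34.0 in ADREX ozone. Sham ozone 17 lay within the ADREX range of Pomc, and the change of -0.86 ± 0.31 (95% interval -1.51 to -0.22) did not pass (limma adjusted p = 0.223, 0.0336 with sample weights, 0.0336 to 0.584 over the alternatives). The list median was -0.14, with 20 of 28 members negative.

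Immediate early genes, which neurons switch on within minutes of stimulation, did not pass either: 0 of 26 tested, with a median of -0.08 that ran from -0.18 without sham ozone 18 to 0.03 without sham ozone 19. Fos read 61.5, 32.4, 98.3 and 53.8 in sham ozone and 57.3, 40.4, 51.2 and 56.3 in ADREX ozone (-0.16 ± 0.28, limma adjusted p = 0.877). Nr4a1 was at 200.3 ± 53.5 and 169 ± 47.2 (-0.25 ± 0.30, limma adjusted p = 0.798). Both ranges overlapped. Of 16 tested genes of catecholamine synthesis, transport and reception 0 passed, and tyrosine hydroxylase (Th) ran from 195 to 579 in sham ozone and from 163 to 502 in ADREX ozone (-0.20 ± 0.37, limma adjusted p = 0.886). Among 20 clock genes, Per3 rose from 464 ± 51.0 to 731 ± 116 (0.65 ± 0.12, limma adjusted p = 0.00613), 0 fell and the median was -0.15. Without sham ozone 18, 3 clock genes were called lower. Of all genes tested 1.04% were called higher, so the 1 rise among 20 clock genes describes Per3 alone.

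Of 16 tested inflammatory and acute-phase genes 2 rose and 14 did not pass, while 1.04% of all genes tested were called higher. Tlr2, a Toll-like receptor for bacterial lipoproteins, read 44.5, 92.3, 46.9 and 43.7 normalized counts in sham ozone and 144, 141, 120.0 and 224 in ADREX ozone (1.49 ± 0.21, limma adjusted p = 0.000711). Cd180, a Toll-like receptor homologue, read 19.9, 34.4, 16.5 and 23.4 against 56.3, 50.3, 47.5 and 59.8 (1.20 ± 0.20, limma adjusted p = 0.00253). Sham ozone 18 was the highest sham library for both and lay below every ADREX library, as the rule for naming the largest rises required. The list median was 0.13, and leaving out sham ozone 17, sham ozone 19 or ADREX ozone 84 gave 0.012, 0.024 or 0.055. The cytokine genes Il1b, Il6, Tnf and Ccl2 were below the mean of 10 normalized counts needed for testing. Outside that list, Fcrl2, an Fc receptor-like protein, rose from 82.9 ± 10.98 to 210.0 ± 61.5 (1.29 ± 0.21, limma adjusted p = 0.00182). The lysosomal GTPase Rab7b rose from 24.6 ± 4.13 to 59.5 ± 9.09 (1.24 ± 0.17, limma adjusted p = 0.000532) and the class I histocompatibility gene RT1-CE7 from 122 ± 21.1 to 250.4 ± 43.2 (1.03 ± 0.15, limma adjusted p = 0.000660). RT1-CE7 belongs to a family of near-identical copies, so its reads may be shared. The lectin-like receptor Klra2, of another such family, rose from 36.0 to 94.7 (1.55 ± 0.34, limma adjusted p = 0.0220, 0.000426 to 0.154 over the alternatives), and lost the call without sham ozone 17 (0.0636), 19 (0.0753) or 20 (0.0713) or ADREX ozone 84 (0.0692).

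Interferon-responsive and antigen-presentation genes had 2 rises and 0 falls among 23 tested, both of guanylate-binding proteins. The share of all genes tested that were called higher was 1.04%. Gbp2 read 30.3, 39.3, 28.5 and 30.5 in sham ozone and 71.4, 52.1, 66.2 and 78.6 in ADREX ozone (1.03 ± 0.17, limma adjusted p = 0.00209). Gbp5 rose from 20.3 ± 5.61 to 45.2 ± 9.23 (1.13 ± 0.21, limma adjusted p = 0.00575, 0.00037 to 0.0625 over the alternatives). Its groups did not overlap, and the call was lost with the compared groups alone (0.0625). The list median was 0.29, with 20 of 23 positive, but no other member passed, among them Mx1 (0.51), Irf7 (0.33) and Cd74 (0.72), with limma adjusted p from 0.381 to 0.747. Microglia markers summed to between 243 and 254 RPM in sham ozone and between 261 and 284 in ADREX ozone, without overlap, and 0 of 12 passed on their own (median 0.15). The largest change among them was Cx3cr1, the fractalkine receptor, with 225 and 394 normalized counts (0.86, limma adjusted p = 0.0828). The part of microglial RNA in the immune genes was not tested.

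Vascular genes moved both ways. Of 16 tested endothelial markers 6 rose and Mfsd2a fell, with a median of 0.26 against 0.01 over all genes. Kdr, the main receptor for vascular endothelial growth factor, read 115, 176, 123 and 131 normalized counts in sham ozone and 195, 293, 279 and 250.9 in ADREX ozone (0.90 ± 0.16, limma adjusted p = 0.00490). Slco1c1, the thyroxine transporter of brain capillaries, read 280.1, 382, 317 and 352 and then 482, 519, 524 and 665 (0.71 ± 0.12, limma adjusted p = 0.00351). Neither gene overlapped. Cdh5 (VE-cadherin; 0.87 ± 0.17), the angiopoietin receptor partners Tie1 (0.77 ± 0.15) and Tek (0.47 ± 0.12) and the organic anion transporter Slco1a4 (0.99 ± 0.23) passed as well (limma adjusted p from 0.00861 to 0.0450). Other endothelial markers did not pass, namely Cldn5 (0.24), Vwf (-0.03), Flt1 (0.09) and Slc2a1 (-0.49), among others. The summed level of the markers overlapped, 1007 to 1249 RPM in sham ozone and 935 to 1316 in ADREX ozone. Slc2a1 weighs most in this sum, with 2447 to 6036 reads per library, so the overlap does not speak for the other markers.

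Outside the marker list, Cd93, a receptor on endothelial and myeloid cells, rose from 85.2, 140.3, 83.6 and 71.1 to 218, 176, 248 and 335 (1.36 ± 0.22, limma adjusted p = 0.00207). The apelin receptor Aplnr rose from 135 ± 50.5 to 329.7 ± 146 (1.25 ± 0.28, limma adjusted p = 0.0223, 0.000681 to 0.101 over the alternatives), and lost the call without sham ozone 17 (0.0840), 19 (0.0916) or 20 (0.0713) or ADREX ozone 84 (0.0557). The endothelial factor Egfl7 rose from 39.3 to 88.2 (1.18 ± 0.24, limma adjusted p = 0.0123, 0.000412 to 0.0558 over the alternatives), with the call lost without sham ozone 19 (0.0558) or ADREX ozone 81 (0.0529). The progenitor antigen Cd34 rose from 71.9 ± 23.9 to 145 ± 19.4 (1.04 ± 0.19, limma adjusted p = 0.00637, 8.96e-05 to 0.0566 over the alternatives), and lost the call with the compared groups alone (0.0566). Rasgrp3, which loads Ras and Rap with GTP, had the smallest p of the rises named here, with 257, 337, 246 and 266 in sham ozone and 657, 596, 645 and 654 in ADREX ozone (1.21 ± 0.10, limma adjusted p = 1.30e-06). Tecta (1.18 ± 0.15), known as a matrix protein of the inner ear, and Nkd1 (0.98 ± 0.12), an inhibitor of Wnt signalling, rose with limma adjusted p = 0.000213 and 0.000202. The transcription factor Mlxipl, which responds to glucose, rose (1.04 ± 0.26, limma adjusted p = 0.0452, 0.00447 to 0.189 over the alternatives), and it kept the call without sham ozone 18 and lost it without each of the other 7 libraries. The 14 tested mural and fibroblast markers held 0 calls, with a median of 0.00.

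Glial markers were split. Of 17 tested oligodendrocyte markers 6 rose and 2 fell, with a median of 0.34. Opalin, a membrane protein of mature oligodendrocytes, read 1665, 1766, 1407 and 1399 normalized counts in sham ozone and 3126, 2780, 2949 and 3254 in ADREX ozone (0.96 ± 0.09, limma adjusted p = 9.55e-06). Aspa, the enzyme that splits N-acetylaspartate in the same cells, went the other way, from 950.0, 640, 906 and 921 to 424, 329.8, 359 and 383 (-1.18 ± 0.12, limma adjusted p = 2.61e-05). Both genes were free of overlap. Fa2h, which makes 2-hydroxylated myelin lipids, rose (0.54 ± 0.08, limma adjusted p = 0.00102), as did Ermn, Mog, Cnp and Ugt8 by 0.34 to 0.60 with limma adjusted p from 0.0268 to 0.0466, while the myelin protein Mal fell (-0.28 ± 0.06, limma adjusted p = 0.0173, 9.79e-05 to 0.101 over the alternatives). The call of Mal was lost without sham ozone 17 (0.0626), 19 (0.0560) or 20 (0.0616) and without ADREX ozone 82 (0.0567) or 83 (0.0589). The major myelin gene Mbp (0.27) did not pass (limma adjusted p = 0.446). The marker sum ran from 18405 to 20387 RPM in sham ozone and from 20399 to 24049 in ADREX ozone, and from 17453 to 19084 and 20331 to 21652 in the same groups in air. Leaving out ADREX ozone 82 or sham ozone 20 reduced the 8 called markers to 5, leaving out ADREX ozone 81 or sham ozone 17 or 19 to 4, and leaving out ADREX ozone 83 to 3.

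Of 12 astrocyte markers, Gjb6 and Aldoc fell and Aqp4 rose, with a median of -0.16. Gjb6, a gap junction protein, read 1108, 1386, 1009 and 1031 in sham ozone and 589, 440.3, 580.0 and 843 in ADREX ozone (-0.91 ± 0.16, limma adjusted p = 0.00351), and lost the call with the compared groups alone (0.0533, the highest over the alternatives). Aldoc, the brain aldolase, went from 4373 ± 169 to 2927 ± 136 (-0.58 ± 0.11, limma adjusted p = 0.00643). The water channel Aqp4 went from 7627 ± 709 to 9945 ± 1093 (0.38 ± 0.09, limma adjusted p = 0.0449, 0.00693 to 0.165 over the alternatives), and it kept the call without sham ozone 18 or without ADREX ozone 82 and lost it without each of the other 6 libraries. Of neuron (13 tested), oligodendrocyte precursor (6), ependymal (9), choroid plexus (10), pituitary (3) and hypothalamus regional (13) markers 0 were called, and of the thalamus, striatum and cortex markers (10) Lef1 alone rose, with groups that overlap (0.85 ± 0.21, limma adjusted p = 0.0390, 0.000265 to 0.239 over the alternatives). Lef1 kept the call without sham ozone 18 or without ADREX ozone 82 and lost it without each of the other 6 libraries.

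Ozone is an oxidant, and of 22 tested NRF2 antioxidant genes 1 was called, against 2.24% of all genes tested. A single call in such a list, as in the cholesterol synthesis genes below, is close to that share and describes the gene alone. Slc7a11, the cystine importer, read 680.3, 908, 824 and 764 normalized counts in sham ozone and 1275, 1201, 1301 and 1327 in ADREX ozone (0.69 ± 0.12, limma adjusted p = 0.00403). The other 21 of 22 tested NRF2 antioxidant genes did not pass, Hmox1 (0.35 ± 0.19) and Nqo1 (-0.36) among them, and the list median was -0.02 (-0.07 without sham ozone 18). Of 18 heat-shock and chaperone genes the small heat-shock protein Cryab fell from 1032, 1068, 971 and 1017 to 502, 504, 458 and 605 (-0.99 ± 0.11, limma adjusted p = 5.56e-05), and the co-chaperone Bag3 fell from 172 ± 28.6 to 111 ± 11.5 (-0.62 ± 0.15, limma adjusted p = 0.0331). Over the alternatives the adjusted p of Bag3 ran from 0.00296 to 0.123, and it lost the call without sham ozone 17 (0.123), 19 (0.0985) or 20 (0.105) and without ADREX ozone 82 (0.0955), 83 (0.0960) or 84 (0.0563). Of 22 cholesterol synthesis genes Insig1, which holds back sterol synthesis, fell from 1854 ± 144 to 1328 ± 79.5 (-0.48 ± 0.09, limma adjusted p = 0.00671), and the list median was -0.02 (-0.08 without sham ozone 18). Of 20 liver transcripts 1, Itih3, fell (-0.52 ± 0.10, limma adjusted p = 0.0117, 0.0800 with the compared groups alone), while the list median was 0.68 and ran from -0.33 without sham ozone 20 to 1.99 without sham ozone 18. The 3 tested red blood cell transcripts had a median of -2.41 and 0 calls.

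The same operation in filtered air gave far fewer calls. Limma called 2 of 14483 genes (0.0138%), Fcrl2 higher (1.40 ± 0.21; 0.0069% of genes) and the matricellular protein Sparc lower (-0.44; 0.0069%), both at adjusted p = 0.0278, while edgeR called 2 and DESeq2 14, and 807 genes had an unadjusted p under 0.05. In ozone 1737 genes had an unadjusted p under 0.05. Limma called 0 genes in air without any of sham air 1, 2, 3 or 4 or ADREX air 66, 1 without ADREX air 65 or without ADREX air 68, and 7 without ADREX air 67. Both genes were also called in ozone, and Sparc fell there by 0.65 ± 0.06 (limma adjusted p = 2.24e-05). Of the 325 genes called in ozone, 276 had the same sign in air. Their median change in the ozone direction was 0.17 in air and 0.67 in ozone, but they were chosen by the ozone change, which enlarges the latter.

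The difference between the ozone and the air effect was tested in the same fit. Limma called 20 of 14483 genes (0.138%), and 17 were more negative (0.117%) and 3 more positive (0.0207%) in ozone. Fkbp5 stood at 249.9 ± 62.2 normalized counts in sham air and 225 ± 25.2 in ADREX air, a change of -0.13 ± 0.14, and the ozone effect was larger by -2.26 ± 0.20 (limma adjusted p = 6.54e-05). Pnpla2 (-0.14 ± 0.12 in air; difference -1.75 ± 0.17), Cdkn1a (-0.22 ± 0.16; -2.12 ± 0.22), Pex11a (-0.35 ± 0.11; -1.38 ± 0.15) and the provisional gene LOC100911615 (-0.14 ± 0.13; -1.70 ± 0.18) followed, with limma adjusted p from 0.000125 to 0.000179. Plin4 (-3.25 ± 0.47), Pla2g3 (-2.96 ± 0.41), Gpd1 (-1.95 ± 0.28), Gpatch4 (-1.92 ± 0.21) and Aspa (-1.38 ± 0.17) were also called, with limma adjusted p from 0.000204 to 0.00407. The 3 more positive differences were those of Rasgrp3 (0.99 ± 0.14), Opalin (0.71 ± 0.13) and cyclin D1 (Ccnd1, 0.71), with limma adjusted p = 0.00305, 0.0229 and 0.0224. The call of Ccnd1 (adjusted p up to 0.0997) was lost without sham ozone 17 or 19, ADREX ozone 81 or 83, sham air 1, 2 or 4, or ADREX air 66, 67 or 68, and without the liver-rich libraries. The call of Opalin (adjusted p up to 0.0859) was lost without sham ozone 19 or 20, ADREX ozone 81 or 83, sham air 1, 2 or 4, or ADREX air 66 or 68. Gpd1 had a change of -0.95 ± 0.20 in air, Pla2g3 one of -1.03 ± 0.29 and Mfsd2a one of -0.86 ± 0.20, each with the sign of the ozone effect and each short of the threshold (limma adjusted p from 0.353 to 0.689). For Hif3a, Sgk1, Nr3c1, Kdr and Tlr2 the difference did not pass (limma adjusted p from 0.242 to 0.9997). The count of differing genes was 37 without sham ozone 18.

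**Figure D3:**
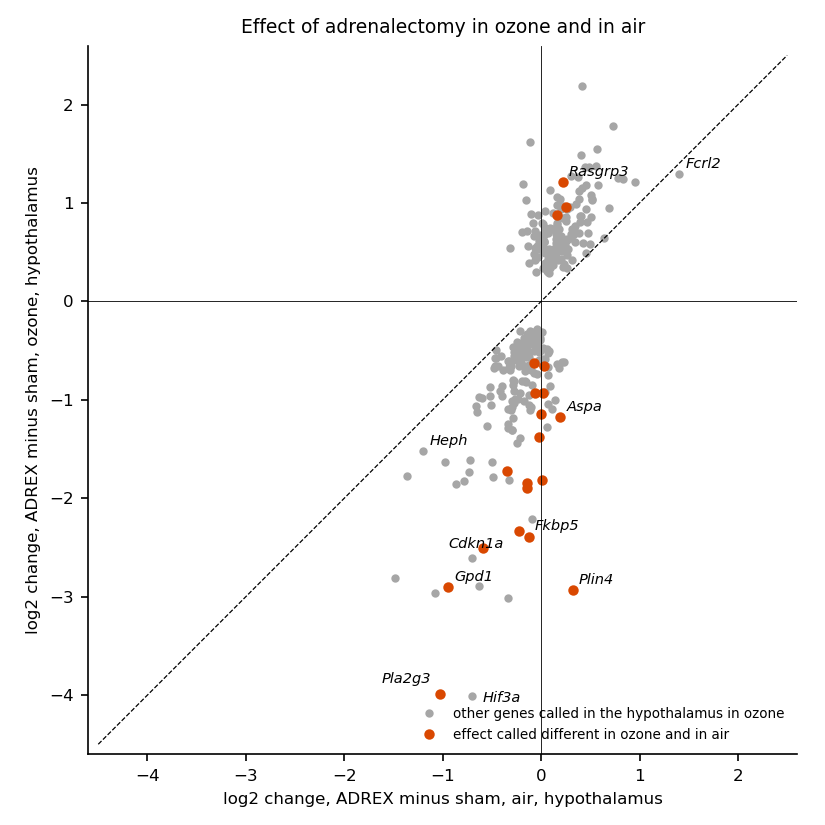
Each point is 1 of the 325 genes called in ozone, with its log2 change, ADREX minus sham, in air on the x axis and in ozone on the y axis; orange points are genes whose effect differed between ozone and air, and the dashed line marks equal effects. Fcrl2 lies near the line, while Fkbp5, Cdkn1a and Plin4 lie near 0 on the air axis.

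Sham ozone was the group that stood apart for several of these genes. The comparisons of ozone with air share the ozone libraries with the comparison above, so their values are given side by side and are not independent of it. Fkbp5 was at 249.9, 1162, 225 and 219 normalized counts in sham air, sham ozone, ADREX air and ADREX ozone. Aspa was at 298, 854, 341 and 374 in the same order, and Cryab at 469.8, 1022, 398 and 517. Rasgrp3 ran the other way, at 570.0, 277, 666 and 638, and Slco1c1 at 684, 333, 623 and 547. In these 5 genes the means of the other 3 groups lay closer together than to sham ozone. Fcrl2 was different, at 70.4, 82.9, 189.9 and 210.0, so it followed the operation in both exposures. Aldoc, at 4079, 4373, 2999 and 2927, likewise had an air effect of -0.46 ± 0.11, which did not pass (limma adjusted p = 0.393). Limma called 230 of 14483 genes for ozone against air in sham rats (1.59%), 137 higher (0.946%) and 93 lower (0.642%) in ozone, and 0 in ADREX rats (0%), where 1163 genes had an unadjusted p under 0.05 and no other tool was run.

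**Figure D4:**
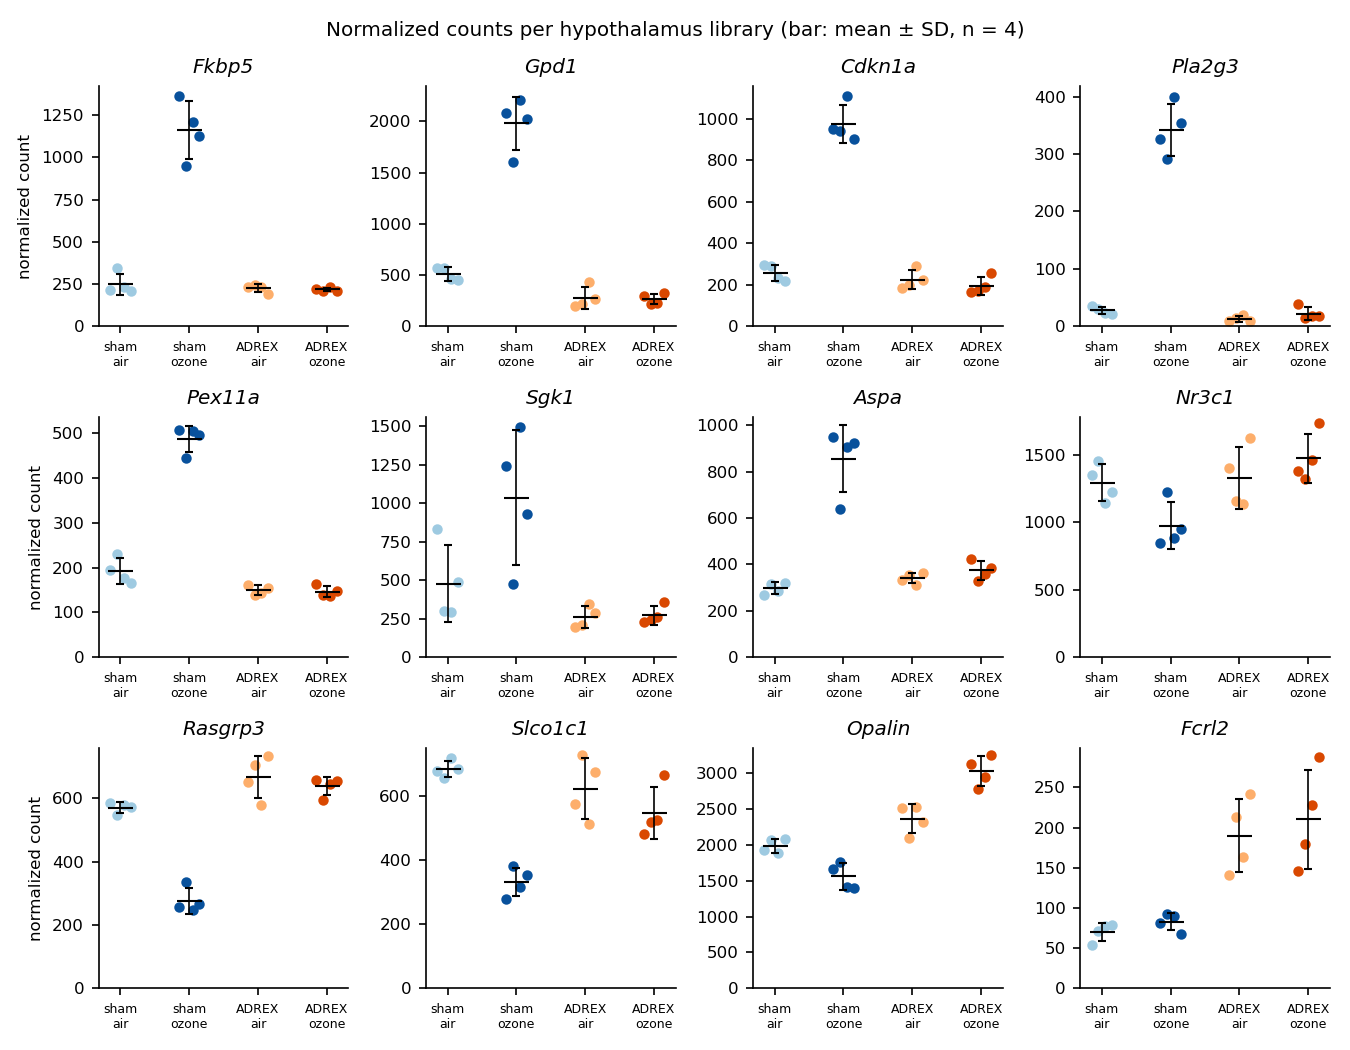
Points are normalized counts of the 16 hypothalamus libraries for 12 genes, by operation and exposure, with the mean and SD of each group of 4 as bars. Sham ozone stands apart from the other groups for most genes, while both ADREX groups of Fcrl2 stand above both sham groups.

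The brainstem of the same 2 groups showed many of the same changes. Limma called 352 of 14408 genes there (2.44%). The count was 218 without brainstem sham ozone 17, 207 without 19 and 197 without 20. Brainstem ADREX ozone 81 stood apart from its replicates. Chi-square per gene of the reads was 64.5 to 71.7 for pairs with it and 6.75 to 7.64 among 82, 83 and 84. Aldoc read 9792 in it against 4859, 4739 and 4325 in those libraries, and Tsc22d3 577 against 1946, 1962 and 1941. Of the 325 hypothalamus calls 324 were tested in the brainstem, 322 had the same sign and 168 were called in the same direction, 64 higher and 104 lower. These shared calls are 51.9% of the hypothalamus calls and 48.6% of the 346 brainstem calls tested in the hypothalamus, and 0 genes were called in opposite directions. The median change in the hypothalamus direction was 0.60 in the brainstem and 0.67 in the hypothalamus, over genes chosen in the latter. The same replicate numbers occur in both tissues, and no source used here states whether they mark the same animals. The shared calls therefore cannot be taken as an independent repeat. Fkbp5 fell in the brainstem by 2.66 ± 0.13 and Gpd1 by 2.65 ± 0.13, with limma adjusted p = 3.21e-09 and 2.91e-09. Avp and Oxt, both below 4 normalized counts on average in the brainstem groups, were not tested there.

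The difference between the tissues was called for 1 of 14533 genes (0.00688%), while 665 had an unadjusted p under 0.05. It was Pcdh20, a neuronal protocadherin, which read 765, 736, 726 and 596 normalized counts in hypothalamus sham ozone and 411, 333, 402 and 466 in hypothalamus ADREX ozone (-0.81 ± 0.12), and fell further in the brainstem, from 731 ± 182 to 155 ± 32.2 (-2.22 ± 0.18). The difference was 1.41 ± 0.22 (limma adjusted p = 0.00841, 0.627 in a fit of the compared groups alone). Cdkn1a also fell further in the brainstem (-3.69 ± 0.21 against -2.34 ± 0.16), but that difference did not pass (1.36, limma adjusted p = 0.118). DESeq2 called 5 genes and edgeR 1. Without hypothalamus sham ozone 18, brainstem ADREX ozone 81 or brainstem ADREX ozone 84 the count was 2.

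**Figure D5:**
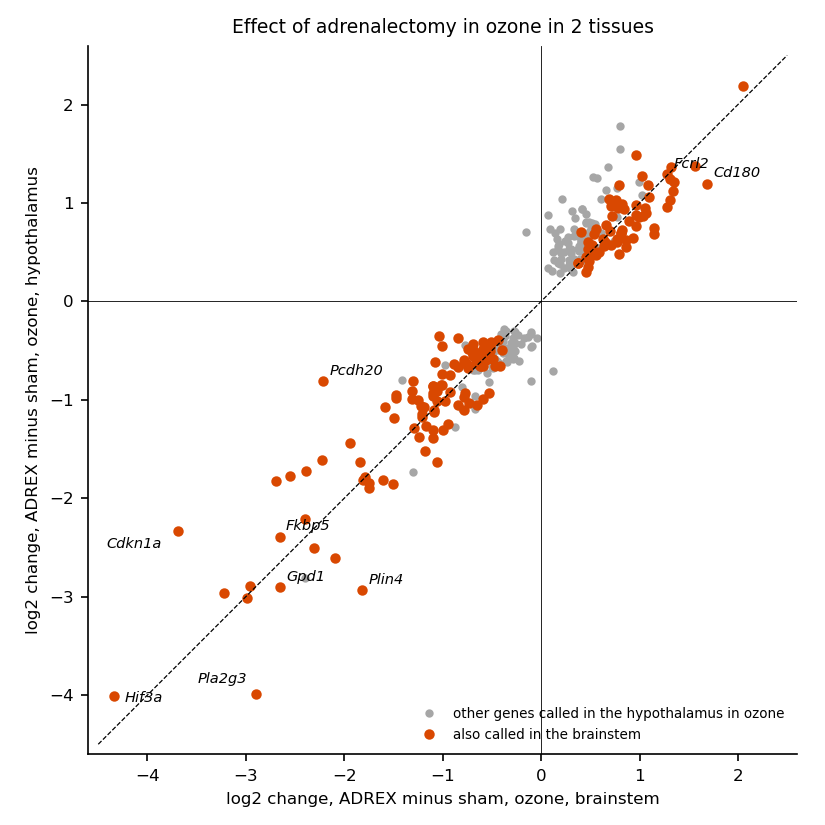
Each point is 1 of the genes called in the hypothalamus, with its log2 change in ozone, ADREX minus sham, in the brainstem on the x axis and in the hypothalamus on the y axis; orange points were called in both tissues and the dashed line marks equal effects. Most points lie near the line, and Pcdh20 and Cdkn1a lie further left of it.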

How the data were processed

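RNA was extracted from frozen hypothalamus and brainstem with Direct-zol, mRNA libraries were made with PrepX kits on an Apollo 324 and sequenced on a NextSeq 500, per the labels' protocols. The submitters' processing notes name Partek, DESeq2 and rn6, without roles or versions. The deposited signal values are normalized counts, 1 value for each of 22587 genes and 32 libraries. The low values showed that counts had been divided by 1 factor per library, and whole reads were recovered for 100% of values within 0.001. Reads limited the counting precision of each value, and replicates differed by more than this sampling noise.

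From the deposited values, log2(value + 1) was tested with limma 3.58.1 (R 4.3.3, trended prior) over the 16 hypothalamus libraries and their 4 group means, for genes with a mean of 10 or more. The tissue difference was fitted over 32 libraries with 8 group means. P-values were adjusted by Benjamini-Hochberg over all genes tested, and 0.05 was the threshold. As alternatives, edgeR 4.0.16 and DESeq2 1.42.0 ran on the recovered reads, and other pseudocounts (0.5 and 5), filters, priors, scalings, sample weights, the compared groups alone, the removal of libraries above 2000 RPM of liver transcripts and the removal of each library were tried. Limma and edgeR also ran on simulated counts with known changes, the same relative spread for every gene and no library that stood apart. That check required only that the median changes were returned, and it set no limit on the calls.

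Named genes are the 15 largest rises and 15 largest falls among called genes (higher group averaging at least 50, no overlap, no provisional symbol), up to 4 called genes of each list with the smallest p, a panel of 14 genes of hormone action, neural activity and oxidant response the 5 smallest p among genes called for the ozone-air difference and the 1 gene called for the tissue difference. Other list members named were chosen after their values were seen. The members and lists were chosen with earlier results of these data known. Replicates differed by more than sampling noise in every pair. Same-numbered libraries of the tissues correlated between -0.581 and 0.597 in their deviations, over 0.1 in 7 of 16 pairs. The tissues differ, so these correlations cannot show whether the numbers mark the same animals. The main fit of the tissue difference did not pair libraries by number.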

Additional observations from a re-analysis of the deposited data

Results flagged for a closer look

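Of 128 groups of 4 libraries examined for the 64 named genes in the compared groups, 12 (9.38%) held 1 library far from the other 3. Chance gives about 1 in 20 for independent groups. These genes share the same libraries and many were selected for groups without overlap, so the shares cannot be compared. In ADREX ozone 84 the genes with such a value were Klra2 (137 normalized counts), Aplnr (548), Itih3 (3911) and Crh (34.0). In ADREX ozone 81 they were Pla2g3 (39.4) and Fa2h (283), and in ADREX ozone 82 Plin4 (21.6). In sham ozone 18 they were Tlr2 (92.3) and Aspa (639.9), and the others were Tsc22d3 in sham ozone 17 (2456), Agt in sham ozone 19 (3488) and Hmox1 in sham ozone 20 (27.4).

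The effect of adrenalectomy differed between ozone and air, by limma's test of the difference, for 12 named genes. The log2 differences, ozone effect minus air effect, were -3.25 for Plin4, -2.96 for Pla2g3, -2.26 for Fkbp5, -2.12 for Cdkn1a, -1.96 for Gpd1, -1.92 for Gpatch4, -1.75 for Pnpla2, -1.70 for LOC100911615, -1.38 for Pex11a and -1.38 for Aspa. They were 0.99 for Rasgrp3 and 0.71 for Opalin. Between tissues, limma's test of the difference called Pcdh20, whose hypothalamus effect minus brainstem effect was 1.41.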

How the results depend on the processing

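The count of 325 called genes became 161 when the compared groups were fitted alone, 1011 with sample weights and 591 without the liver-rich libraries, and ranged from 198 to 584 with 1 library left out. The cause was not tested, but the fit of the compared groups alone has fewer libraries. The 20 genes whose effect differed between ozone and air became 90 with sample weights, 53 with DESeq2 and 32 without the liver-rich libraries, and ranged from 15 to 37 with 1 library left out. The 2 genes called in air became 14 with DESeq2, 1 with quantile scaling and 0 without the liver-rich libraries, and 0 to 7 with 1 library left out. The brainstem count ranged from 197 to 444 with 1 library left out. The 1 gene that differed between tissues became 2 without a filter, 4 with sample weights, 5 with DESeq2 and 0 with the compared groups alone, and 1 to 2 with 1 library left out. With the replicate block across tissues the count was 1. No other comparison was fitted with the block, since the compared groups of one tissue share no numbers.

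Of the 54 named genes called, 41 kept the call under every alternative and 0 reversed. Among genes not called, Avp was -0.085 with sample weights and -0.13 without the liver-rich libraries, and with 1 library left out the changes ranged from -0.13 to 0.32 for Avp, -0.43 to 0.10 for Fos, -0.63 to 0.055 for Oxt and -0.52 to 0.11 for Th. Depth of 6.44 to 8.57 M reads limits genes near the mean of 10, such as Crh.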

Other observations

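Sparc, a matricellular protein, was called lower in ADREX rats in ozone (-0.65), in air (-0.44) and in the brainstem in ozone (-0.46), and it was chosen after its values were seen. Pcdh12, also chosen after its values were seen, rose by 2.19 in the hypothalamus and 2.05 in the brainstem (limma adjusted p = 0.00861 and 0.000683), and its change in air was 0.42 (limma adjusted p = 0.951).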
